A study of Homo sapiens with 8 samples.

Results

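The 2 WT RiboMinus libraries of HEK293T cells are the only libraries of the series that measured the cells' RNA without a capture of NAD-capped molecules, and they are described here as a baseline transcriptome. They were chosen by their label, as 2 of the 8 libraries of the series. The other 6 are NAD-Capture libraries, 3 of WT and 3 of DXO-KO cells, and they are not used below. Both RiboMinus libraries came from unmodified, untreated cells of the same line, so they form 1 group with no comparison. Total RNA was extracted with TRIzol, enriched for non-ribosomal RNA with RiboMinus and made into libraries with a TruSeq kit, per the labels' protocols. The labels do not say whether the replicates came from separate cultures, so their spread may be technical.

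HEK293T is a human cell line grown from embryonic kidney cells that were transformed with adenovirus DNA and later given the large T antigen of the virus SV40. It is used widely as a host for expressing foreign genes. Earlier work on the parent line described a mixed identity, with neuronal intermediate filaments beside features of embryonic kidney and adrenal tissue. Ribosomal RNA makes up most of the RNA of any growing cell, and its removal leaves messenger RNA together with the stable small RNAs that cut, guide and modify other RNAs.

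Levels are FPKM, fragment counts scaled by transcript length and by the mapped depth of the library, summed over the transcripts of a gene symbol. FPKM compares genes per unit of length. The summed FPKM was 541482 in replicate 1 and 544947 in replicate 2. The depth read from the spacing of low values was equivalent to 10689183 and 8694862 fragments, and the value of a lone fragment per kb of effective length came to 0.0936 FPKM in replicate 1 and 0.115 FPKM in replicate 2. Over 4422 transcripts with at least 10 fragments, the chi-square per degree of freedom between the libraries was 2.40, which is more than sampling noise gives. This check bears only on whether 1 library was deposited under both labels, and both were kept. Levels below are given for replicate 1 and then replicate 2.

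By FPKM, coding genes held 64.4% and 63.1% of the sum in replicates 1 and 2. RNase MRP RNA and RNase P RNA with the vault RNAs, grouped here as other small structured RNAs with the Y RNAs, held 21.3% and 20.6%. H/ACA box snoRNAs, many of which guide the change of uridine to pseudouridine in ribosomal RNA, held 6.24% and 6.25%. C/D box snoRNAs, many of which guide methylation of the ribose, held 3.19% and 5.86%. All other classes were small. microRNA genes held 1.95% and 1.30%, long noncoding RNAs 0.909% and 0.887%, scaRNAs (guides for spliceosomal RNA in Cajal bodies) 0.804% and 0.685%, spliceosomal snRNAs 0.409% and 0.450%, and pseudogenes 0.248% and 0.251%. The C/D box class was the only one of the 4 largest classes whose share differed by more than 1.5 times between the libraries.

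**Figure D1:**
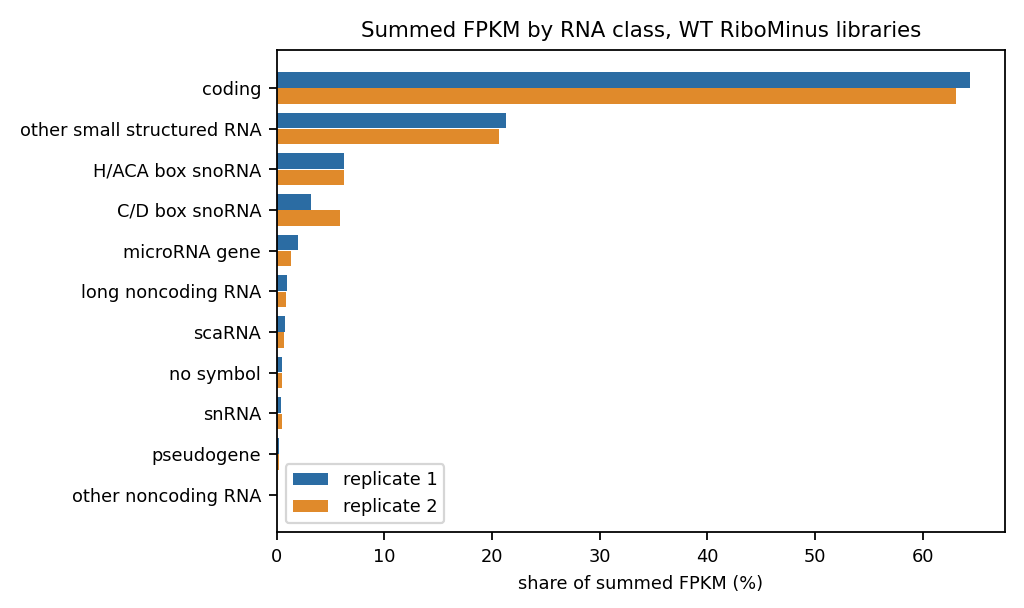
Share of summed FPKM (horizontal axis, percent) held by each RNA class (vertical axis) in replicate 1 and replicate 2 of the WT RiboMinus group; each bar is 1 library. Coding genes hold 64.4% and 63.1%, and the C/D box snoRNAs differ most among the larger classes, at 3.19% and 5.86%.

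These shares are of fragments per length and not of fragments. Each transcript's FPKM was also multiplied by its length, which approaches its share of fragments only for transcripts much longer than a fragment. For RNAs near or under the 200 nt taken off length to read the depth, it is no share of fragments. On this scale coding genes held 93.2%, other small structured RNAs 3.50% and long noncoding RNAs 1.61%. H/ACA box snoRNAs held 0.555% and C/D box snoRNAs 0.256% (means of both libraries). The order of coding genes first and other small structured RNAs second was the same on both scales among these 5 classes. The order by fragments themselves was not tested. Both snoRNA classes were above long noncoding RNAs by FPKM and below them by FPKM times length.

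Among the genes with a row, the highest on the FPKM scale was RMRP, the RNA of RNase MRP, an enzyme that cuts precursor ribosomal RNA. RMRP was at 66318 and 65677 FPKM, which is 12.2% and 12.1% of each library's sum. RPPH1, the RNA of RNase P, which trims the leader off precursor transfer RNA, was at 44440 and 46023 FPKM, or 8.21% and 8.45%. The log2 ratio of replicate 1 to replicate 2 was 0.01 for RMRP and -0.05 for RPPH1, so both were repeated closely. The next RNA, SNORA73B, was at 8943 and 8254 FPKM. Sequences are shown for RMRP and for leading RNAs of the guide and spliceosomal classes that both libraries recorded, because the noncoding share of these libraries rests on such RNAs. They are GENCODE release 29 transcripts on GRCh38, written as DNA.

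RMRP: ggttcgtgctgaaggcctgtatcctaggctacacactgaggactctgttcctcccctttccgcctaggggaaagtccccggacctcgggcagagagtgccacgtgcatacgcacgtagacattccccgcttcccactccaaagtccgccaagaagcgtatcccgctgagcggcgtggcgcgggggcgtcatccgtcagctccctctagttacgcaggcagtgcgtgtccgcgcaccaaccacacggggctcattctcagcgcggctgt
SNORA73B: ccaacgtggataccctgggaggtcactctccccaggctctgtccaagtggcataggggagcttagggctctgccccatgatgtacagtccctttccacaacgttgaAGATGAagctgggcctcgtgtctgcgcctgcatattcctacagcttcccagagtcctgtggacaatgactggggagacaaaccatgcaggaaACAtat
SNORA48: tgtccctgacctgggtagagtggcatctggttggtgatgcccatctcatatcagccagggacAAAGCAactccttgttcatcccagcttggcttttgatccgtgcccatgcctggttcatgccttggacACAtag
SNORD17: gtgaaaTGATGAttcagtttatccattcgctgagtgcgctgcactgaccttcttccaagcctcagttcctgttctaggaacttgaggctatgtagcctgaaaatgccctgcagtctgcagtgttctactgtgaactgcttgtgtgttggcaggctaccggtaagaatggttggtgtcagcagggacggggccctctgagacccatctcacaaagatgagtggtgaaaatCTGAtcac
RNU6ATAC: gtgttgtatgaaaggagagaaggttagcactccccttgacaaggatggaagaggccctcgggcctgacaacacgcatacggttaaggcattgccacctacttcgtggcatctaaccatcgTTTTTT

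Capitals in SNORA73B and SNORA48 mark the match to the H box (ANANNA) nearest the middle and the last ACA, which is followed by 3 bases in both. Capitals in SNORD17 mark the first TGATGA, the core of the C box, and the last CTGA, the D box. Capitals in RNU6ATAC mark the run of 6 T at its 3′ end, where RNA polymerase III stops. RMRP, which the same polymerase makes, carries no capitals, and its longest run of T is 3. RMRP lies at chr9:35657751-35658018, minus strand (GRCh38), and RPPH1 at chr14:20343075-20343407, minus strand. SNORA73B (chr1:28508559-28508762, plus strand) lies within the spans of SNHG3 and RCC1, SNORA48 (chr17:7574713-7574847, plus strand) within the span of EIF4A1, and SNORD17 (chr20:17962710-17962946, minus strand) within the spans of SNX5 and OVOL2. RNU6ATAC (chr9:134164439-134164564, minus strand) and RMRP overlap no other annotated gene. RPPH1 lies within the span of a gene of the annotated type antisense, which is on the same strand as RPPH1.

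Among the H/ACA box snoRNAs, SNORA48 was at 3907 and 4347 FPKM, SNORA71A at 2768 and 3219 FPKM, and SNORA63 at 2756 and 2259 FPKM. SNORA73B alone held 26.5% and 24.2% of the class. The class was thus led by a few RNAs, while 62 of 106 H/ACA genes were at 1 FPKM or more in both libraries, with a median of 164 FPKM. The mRNA of EIF4A1, an RNA helicase of translation whose gene spans SNORA48, was at 406 and 387 FPKM.

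Most abundant C/D box snoRNAs are very short. SNORD17, of 237 nt, was at 1973 and 1838 FPKM, and SNORD97, of 142 nt, at 2019 and 1567 FPKM. The other 8 of the 10 highest were paired with lengths of 67 to 85 nt. Of these, SNORD76, the highest of the class by its mean, was at 3688 and 2496 FPKM and SNORD33 at 1503 and 1002 FPKM. The rest of these were listed at 0 in 1 library. Of 256 C/D genes, 27 were above 0 in at least 1 library and 14 in both. SNORD42B was listed at 0 in replicate 1 and at 6020 FPKM in replicate 2. For SNORD27 the first library gave 4661 FPKM and the second a 0. The genes above 0 in 1 library only held 29.7% of the class in replicate 1 and 69.6% in replicate 2, so the C/D share of each library rests to that extent on RNAs that the other library did not record.

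The value of 1 fragment on such short RNAs is large. VTRNA1-2 and VTRNA1-3, vault RNAs of 89 nt, were at 1782 and 2674 FPKM in replicate 1, a ratio of 1.50, as 2 and 3 fragments would give. In replicate 2 they were listed at 0 and at 576 FPKM. SNORD110 and SNORD50A, both of 75 nt, were at 4918 and 2459 FPKM in replicate 2, a ratio of 2.00, and both were listed at 0 in replicate 1. The fragments behind these values are not given in the deposited table, and how many there were was not tested.

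Of the 5 snRNAs above 0, 4 belong to the minor spliceosome, which removes a rare class of introns. RNU6ATAC was at 827 and 808 FPKM, RNU11 at 604 and 643 FPKM, RNU12 at 540 and 668 FPKM, and RNU4ATAC at 50.2 and 73.7 FPKM. These RNAs are 126 to 150 nt long, and all 4 were above 0 in both libraries. The other, RNVU1-8, a variant of the U1 RNA of the major spliceosome, was at 194 and 261 FPKM. RNU5D-1, RNU5E-1 and RNU5F-1 were listed at 0 in both. The genes RNU1-1, RNU2-1, RNU4-1 and RNU6-1 of the major spliceosome and RN7SK and RN7SL1 were not analysed here, so the class shares do not include them. Of 17 RNAs on the RNA polymerase III list, 10 had a row and 5 were at 1 FPKM or more in both libraries, among them RMRP, RPPH1, RNU6ATAC and VTRNA1-1, at 325 and 205 FPKM. VTRNA2-1, RNY4, RNY5 and BCYRN1 were listed at 0 in both libraries.

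The scaRNAs, most of which are longer, were closer between the libraries at the top of the class. SCARNA12 was at 635 and 633 FPKM, and SCARNA10 at 542 and 492 FPKM. SCARNA22, of 125 nt, was at 689 and 171 FPKM. Of 24 scaRNA genes, 15 were at 1 FPKM or more in both libraries. TERC, the RNA template of telomerase, was at 102 and 131 FPKM, while the mRNA of its protein partner TERT was at 1.38 and 1.30 FPKM. microRNA gene rows were nearly all empty: 18 of 1807 were above 0 in any library and 4 in both. MIR663A was at 2148 and 3067 FPKM, and MIR553 was above 0 in replicate 1 alone, at 6937 FPKM. Such rows measure precursor or overlapping RNA and not the mature microRNA.

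At the gene level, 11992 of 26883 gene entries were at 1 FPKM or more in both libraries, of which 11003 were coding. That is 58.3% of the 18858 coding genes with a row, the background for the gene lists below. Another 448 were long noncoding RNAs, of 3662, and 209 were transcribed pseudogenes, of 926. The median level of the detected coding genes was 12.05 FPKM, against 2.79 FPKM for the detected long noncoding RNAs. Of the coding genes, 3608 were listed at 0 in both libraries.

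The highest coding genes came largely from the ribosomal protein and histone families. The 10 highest coding genes held 5.40% and 5.32% of coding FPKM, the 100 highest 23.2% and 23.2%, and the 1000 highest 56.1% and 55.7%. Of the 20 highest, 8 encode cytoplasmic ribosomal proteins, 9 encode replication-dependent histones, and the other 3 were RACK1, ACTG1 and ENO1. Of the 100 highest, 34 encode ribosomal proteins and 25 histones.

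RPL38, a protein of the large ribosomal subunit, was the highest coding gene at 2439 and 2309 FPKM. RPL37A was at 2325 and 2283 FPKM. RACK1, a scaffold protein bound to the small subunit, was at 2153 and 2031 FPKM. The 83 ribosomal protein genes together held 10.3% and 10.4% of coding FPKM, with a median of 273 FPKM, and 78 of them were at 1 FPKM or more in both libraries. The 5 below were RPL3L and RPL10L, variants of restricted tissues that were listed at 0, and RPS28, RPS27 and RPL21. RPS28 was also listed at 0, RPS27 was at 0.519 FPKM and listed at 0, and RPL21 was at 0.196 and 0.141 FPKM. Every growing cell makes these 3 proteins. A row at or near 0 can thus be a failed or reassigned estimate here, and a gene at 0 is described below only as listed at 0.

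Histones were the other family among the highest genes, with a smaller summed share than ribosomal proteins. Replication-dependent histone genes supply the core and linker histones during S phase, and their mRNAs end in a stem-loop in place of a poly(A) tail. H1-2, a linker histone, was at 2149 and 2026 FPKM, and H1-4 at 1781 and 2024 FPKM. H4C3 was the highest of the core histone genes at 1981 and 1797 FPKM, ahead of H4C5 at 1611 and 1467 FPKM and H3C2 at 1453 and 1492 FPKM. H2BC11 was at 1436 and 1452 FPKM. H1-2 was above H1-4 in replicate 1 and level with it in replicate 2, so their order is within the spread. Together the 69 genes held 7.97% and 8.16% of coding FPKM. Of these, 46 were at 1 FPKM or more in both libraries and 12 were listed at 0 in both, among them H2AC18 with H2AC19, and H4C14 with H4C15, which are pairs of near-identical copies. Counts of such copies can be split or lost between them, so levels of single histone genes are uncertain.

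**Figure D2:**
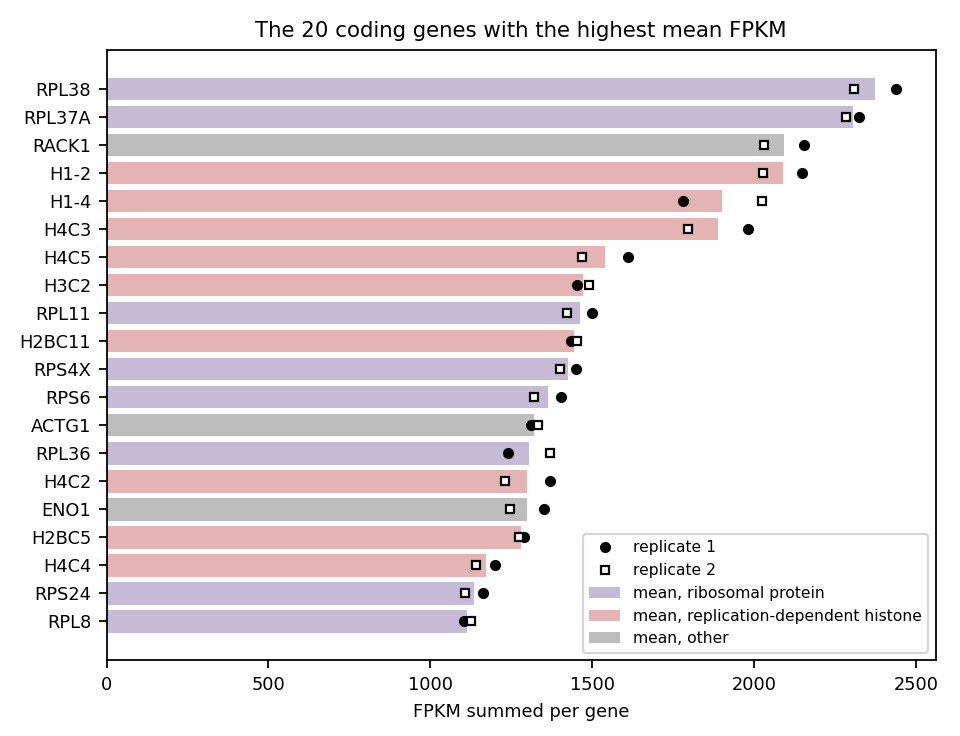
FPKM summed per gene (horizontal axis, from 0) for the 20 coding genes with the highest mean (vertical axis); bars are means of the 2 libraries, coloured by family, filled circles are replicate 1 and open squares replicate 2. RPL38 leads at 2439 and 2309 FPKM, and 17 of the 20 genes encode ribosomal proteins or histones.

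The start regions of these genes differ by family. The letters TATAA, the core of the TATA box that sets the start of some RNA polymerase II genes, were searched from 45 to 16 bases before the annotated start. They were present on the sense strand in 76.6% of 64 histone promoters and 10.8% of 65 ribosomal protein promoters, against 5.76% of the 15101 coding promoters matched by symbol. On either strand the shares were 76.6%, 13.8% and 6.45%. An annotated start of C followed by 4 pyrimidines, the mark of mRNAs whose translation follows growth signals, was found in 66.2% of the ribosomal protein genes, 1.56% of the histone genes and 4.69% of all. The 45 bases before the start of 5 of the 20 highest coding genes are shown to let the families be compared, with TATAA in capitals (RefSeq promoters, GRCh38.p14).

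H1-2: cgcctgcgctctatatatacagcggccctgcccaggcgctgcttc
H1-4: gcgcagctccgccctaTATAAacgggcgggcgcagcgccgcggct
H3C2: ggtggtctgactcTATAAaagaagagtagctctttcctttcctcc
RPL38: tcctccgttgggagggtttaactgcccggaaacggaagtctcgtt
RACK1: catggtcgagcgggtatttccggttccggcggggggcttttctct

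H1-4 (chr6:26156284-26156328, plus strand) and H3C2 (chr6:26032100-26032144, minus strand) hold the letters, and H1-2 (chr6:26056471-26056515, minus strand) does not. RPL38 (chr17:74203633-74203677, plus strand) and RACK1 (chr5:181243907-181243951, minus strand) do not hold them. A match is a description of letters in this window and is no measure of binding.

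Of the 100 highest coding genes, 41 belong to neither family. They include UBB, a polyubiquitin gene, at 1162 and 889 FPKM, NPM1 and NCL, abundant nucleolar proteins, at 703 and 642 FPKM and at 645 and 593 FPKM, and members of the lists described next. ACTG1 and ACTB, the cytoplasmic actins, were at 1310 and 1332 FPKM and at 1064 and 1085 FPKM. TUBA1B and TUBB, the main tubulins, were at 866 and 772 FPKM and at 717 and 680.2 FPKM, while TUBB3, the neuronal tubulin, was at 4.61 and 5.36 FPKM. All 17 genes of the actin and tubulin list were at 1 FPKM or more in both libraries, with a median of 232 FPKM.

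In glycolysis, ENO1 was at 1350.2 and 1245 FPKM and GAPDH at 1023 and 994 FPKM. All 17 listed genes were at 1 FPKM or more, with a median of 122 FPKM, and together they held 1.61% and 1.54% of coding FPKM. Of the enzyme pairs, LDHB was at 830 and 776 FPKM against 316 and 307 FPKM for LDHA. HK1 was at 49.0 and 47.9 FPKM, above HK2 at 12.7 and 14.02 FPKM. For PKM, which is spliced into the M1 and M2 forms of pyruvate kinase, transcript NM_002654, the M2 form, held 93.8% and 94.5% of the gene's 506 and 467 FPKM.

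Among chaperones, HSPA8, the constitutive heat shock protein of the cytosol, was at 660 and 610 FPKM, HSP90AB1 at 539 and 514 FPKM and CCT3, a subunit of the chaperonin that folds actin and tubulin, at 518 and 488 FPKM. Of 20 chaperone genes, 19 were at 1 FPKM or more in both libraries and together held 1.53% and 1.47% of coding FPKM. The exception was HSPA1A, at 0.252 and 0.154 FPKM, whose near-identical copy HSPA1B was at 114 and 101 FPKM. Among translation factors, EEF2, which moves the ribosome along the mRNA, was at 817 and 891 FPKM and EIF4A1 was the highest of the initiation factors. All 19 listed factors were at 1 FPKM or more, with a median of 142 FPKM. EEF1A1 at 247 and 220.2 FPKM and EIF3C at 3.78 and 3.03 FPKM have near-identical copies elsewhere in the genome, and their values are uncertain.

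Host genes of snoRNAs, which carry snoRNAs in their introns, were prominent among the long noncoding RNAs. SNHG29 was at 334 and 334 FPKM, SNHG16 at 222 and 225 FPKM and SNHG8 at 202 and 188 FPKM. SNHG25 was at 593 and 258 FPKM, and its row was paired with a length of 106 nt. MALAT1, a nuclear RNA of nuclear speckles, was at 173 and 190.2 FPKM, and NEAT1, the scaffold of paraspeckles, at 10.1 and 13.1 FPKM. NORAD, a cytoplasmic RNA that binds PUMILIO proteins, was at 56.0 and 59.3 FPKM. Of 19 names on the list of abundant noncoding RNAs, which also holds TERC and TERT, 18 had a row, and all 18 were at 1 FPKM or more in both libraries, with a median of 54.8 FPKM. The list was chosen by name, and it is not a measure of the class.

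The label names a kidney line, and its markers were checked first. Of 14 embryonic kidney genes, 8 were at 1 FPKM or more in both libraries, a share close to the 58.3% of all coding genes. At 10 FPKM or more in both were 4 of the 14, against 6002 of all 18858 coding genes. The median was 4.16 FPKM, against 3.10 FPKM for all coding genes. HOXD11 was the highest at 23.5 and 28.8 FPKM, followed by HOXA11 at 17.4 and 14.8 FPKM, which together pattern the kidney. HOX genes were broadly present, with 35 of 39 at 1 FPKM or more in both libraries and a median of 6.92 FPKM. Some, such as HOXA9 at 64.4 and 59.4 FPKM, were above HOXD11 and HOXA11, so these levels are not particular to kidney genes. CITED1 and SIX2, which mark the progenitors that form nephrons, were at 14.9 and 16.1 FPKM and at 8.90 and 8.66 FPKM. Their regulator EYA1 was at 5.31 and 5.21 FPKM, SALL1 was at 7.43 and 7.63 FPKM and WT1 at 3.23 and 2.89 FPKM.

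The rest of the early kidney genes were low. PAX2 was at 0.0831 and 0.204 FPKM, PAX8 was listed at 0 in both libraries, and LHX1, OSR1, GDNF and RET were under 1 FPKM. Several progenitor genes were thus at 1 FPKM or more while PAX2 and PAX8 of the same tissue were at or near 0, which is not taken as absence. Of 15 genes of the mature nephron, 10 were listed at 0 in both libraries. NPHS1 of podocytes, UMOD and SLC12A1 of the thick ascending limb, AQP2 of the collecting duct, and SLC34A1, SLC22A6 and SLC22A8 of the proximal tubule were among them. LRP2, the endocytic receptor megalin, was the only one at 1 FPKM or more, at 2.63 and 2.54 FPKM.

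Adrenal genes were near 0. None of 17 reached 1 FPKM. NR5A1, the transcription factor of steroid-making cells, was at 0.0650 and 0.0398 FPKM, and CYP11A1, the first enzyme of steroid synthesis, was listed at 0 in both libraries. TH of the adrenal medulla was also listed at 0, and CHGA was the highest of the list at 0.355 and 0.407 FPKM.

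Neuronal genes were mixed. Of 17, 7 were at 1 FPKM or more in both libraries, a smaller share than the 58.3% of all coding genes. UCHL1, a ubiquitin hydrolase abundant in neurons, was at 156 and 150.3 FPKM. The intermediate filaments INA, NEFL and NEFM were at 7.73 and 7.98 FPKM, at 4.12 and 4.00 FPKM, and at 3.89 and 4.20 FPKM. Other filament genes of the list were lower, with NEFH at 0.455 and 0.361 FPKM and NES at 1.08 and 0.671 FPKM. GAP43, MAP2, STMN2, L1CAM and RBFOX3 were under 1 FPKM in both libraries. ENO2, SYP and TUBB3 were also above 1 FPKM, with ENO2 at 7.38 and 7.43 FPKM. DCX, ELAVL3 and ELAVL4, which mark neurons that have left the cycle, were at 0.0259 FPKM or less in both libraries, and the neuronal list had a median of 0.408 FPKM.

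Of 14 mesenchymal genes 8 were at 1 FPKM or more in both libraries, which is close to the 58.3% of all coding genes, and of 12 epithelial genes 4 were, a smaller share. VIM, the intermediate filament vimentin, was at 321 and 308 FPKM, while KRT18 was at 22.3 and 18.7 FPKM and its partner KRT8 at 4.98 and 2.81 FPKM. SNAI2 and ZEB1, repressors of epithelial genes, were at 24.6 and 22.9 FPKM and at 7.44 and 7.92 FPKM. CDH2, N-cadherin, was at 8.64 and 7.81 FPKM, against 1.37 and 1.56 FPKM for CDH1, E-cadherin. ESRP2 was at 6.10 and 6.79 FPKM and EPCAM at 1.41 and 0.748 FPKM, while KRT19, KRT7, CLDN3 and ESRP1 were listed at 0 in both libraries. Genes of fibroblast matrix were low, with COL1A1 at 1.27 and 1.56 FPKM and COL1A2 listed at 0. The mesenchymal genes COL3A1, SNAI1, THY1, PDGFRA and PDGFRB were under 1 FPKM in both libraries.

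Lists of other cell types served as a check for foreign RNA. None of 12 blood genes, 6 endothelial genes, 8 hepatocyte genes and 8 muscle genes reached 1 FPKM in both libraries. The summed level was 3.41 and 2.81 FPKM for blood, 0.259 and 0.263 FPKM for endothelium, 0.692 and 0.167 FPKM for hepatocytes and 0.884 and 0.890 FPKM for muscle. In blood, CD68 was at 0.676 and 1.03 FPKM and HBA1 at 1.30 and 0.260 FPKM. PTPRC, CD3E, PECAM1, CDH5, SERPINA1 and MYOG were listed at 0 in both. Of 9 pluripotency genes, LIN28B, a repressor of let-7 microRNA processing, was at 34.4 and 30.5 FPKM and SOX2 at 1.46 and 2.18 FPKM. NANOG, DPPA4, ZFP42 and CRIPTO were listed at 0, and POU5F1 was at 0.672 and 0.493 FPKM.

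**Figure D3:**
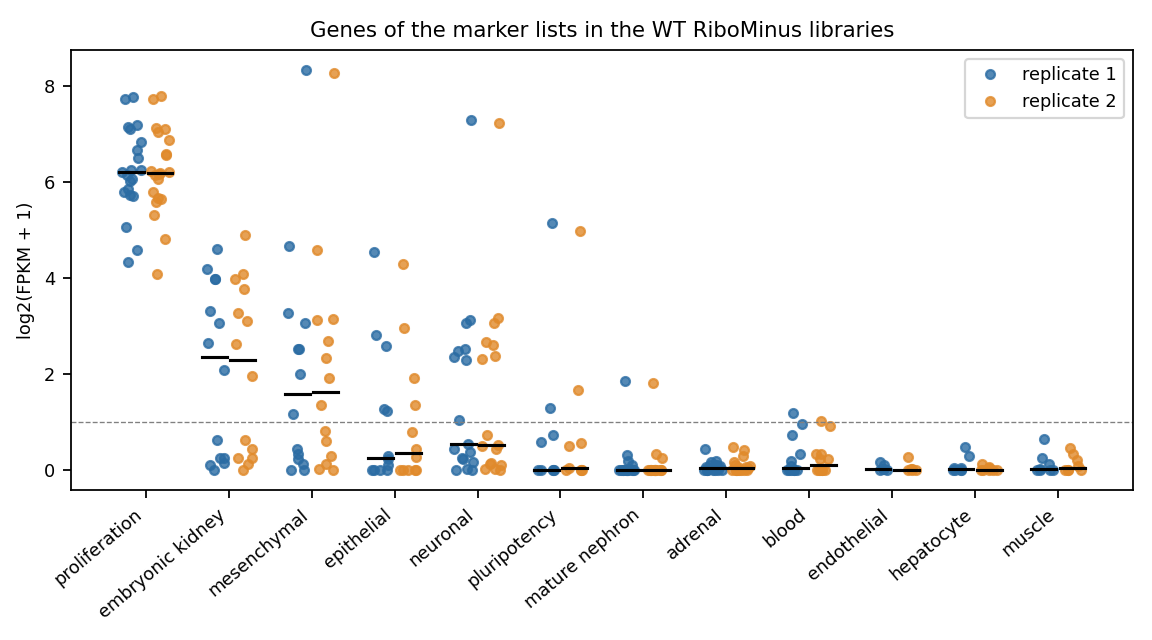
log2(FPKM + 1) of each gene (vertical axis) by gene list (horizontal axis); points are genes in replicate 1 or replicate 2, black lines are medians per library, and the dashed line is an FPKM of 1. All 21 proliferation genes lie above the line, and no blood, endothelial, hepatocyte, muscle or adrenal gene lies above it in both libraries.

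Cell cycle genes were among the higher coding genes. All 21 proliferation genes were at 10 FPKM or more in both libraries, against 6002 of all 18858 coding genes. Their median was 72.9 FPKM. PCNA, the sliding clamp of DNA polymerase, was at 211 and 211 FPKM, and MCM7, a subunit of the replicative helicase, at 219 and 220.03 FPKM. CCNB1, the mitotic cyclin, was at 145 and 137 FPKM, CDK1 at 101 and 95.1 FPKM, and MKI67 at 66.0 and 72.4 FPKM. CCNE1 was the lowest of the list at 19.1 and 16.1 FPKM.

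Large T antigen and the adenovirus proteins bind tumour suppressors such as the RB family, so genes of tumour suppressor pathways were listed. All 15 of them were at 1 FPKM or more in both libraries, with a median of 12.9 FPKM. BAX, which promotes cell death, was at 59.8 and 58.4 FPKM and MDM2, a ubiquitin ligase, at 34.7 and 35.2 FPKM, while CDKN1A, a cell cycle inhibitor, was at 4.42 and 3.54 FPKM, GADD45A at 5.10 and 3.94 FPKM and BBC3 at 2.25 and 2.70 FPKM. RB1, RBL1 and RBL2 stood close together, between 12.7 and 16.1 FPKM. CDKN2A was at 54.2 and 49.7 FPKM, and transcript NM_058195, which encodes the ARF protein, held 80.6% and 78.2% of it.

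The listed sensors of innate immunity were low, and the signalling proteins below them ranged widely. Of 30 genes of innate sensing, 10 were at 1 FPKM or more in both libraries, a smaller share than among coding genes as a whole. None of the 10 Toll-like receptors reached 0.5 FPKM in either library, and TLR2, TLR4 and TLR8 were listed at 0. CGAS, the DNA sensor, was listed at 0 and at 0.0710 FPKM, and its partner STING1 was at 0.746 and 0.580 FPKM. RIGI, a sensor of viral RNA, was at 1.93 and 1.58 FPKM. Downstream, IRF3 was at 18.8 and 19.2 FPKM, TBK1 at 16.6 and 17.4 FPKM and MAVS at 15.7 and 15.5 FPKM. Other downstream proteins were lower, with the adaptors MYD88 at 1.49 and 2.13 FPKM and TICAM1 at 0.447 and 0.547 FPKM, the kinase IKBKE at 2.08 and 2.27 FPKM and IRF7 at 0.757 and 0.609 FPKM. IFNB1, AIM2, IFI16 and NLRP3 were listed at 0 in both libraries.

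The libraries agreed closely for coding genes. Across 12361 genes with a mean of at least 1 FPKM, Spearman's rho was 0.974 and Pearson's r of log2(FPKM + 1) was 0.954. For the 11190 coding genes among them both were higher, at 0.994 and 0.995, and for the 912 noncoding genes they were 0.680 and 0.732. These describe genes, which are not independent replicates, and the libraries share their preparation and processing.

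On the log2(FPKM + 1) scale 110 genes, or 0.89%, were more than 2-fold apart, 37 of them higher in replicate 1 and 73 in replicate 2. The median log2 ratio of all genes was 0.0078. Of the coding genes 9 were past 2-fold, which is 0.0804%, all with a mean under 10 FPKM. Of the H/ACA box snoRNAs 30 of 79 were past it, of the C/D box snoRNAs 13 of 27, of the scaRNAs 7 of 20 and of the microRNA genes 15 of 18. No snRNA or pseudogene of 5 and 233 was.

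**Figure D4:**
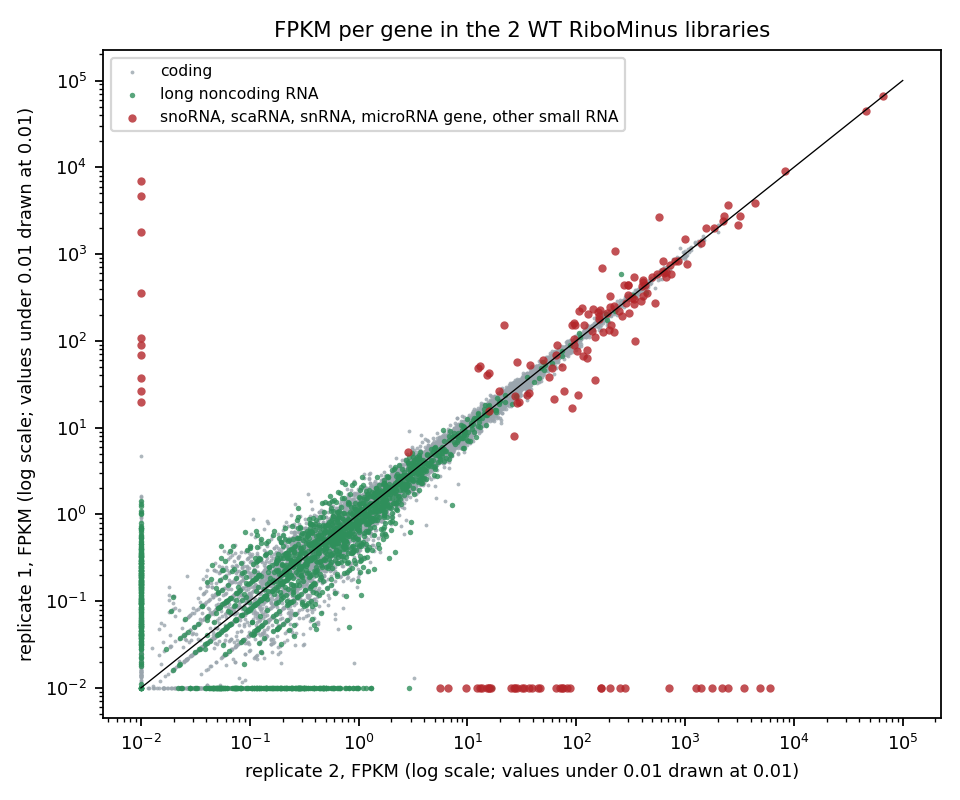
FPKM per gene in replicate 1 (vertical axis) against replicate 2 (horizontal axis), both on log scales, with values under 0.01 drawn at 0.01; points are genes and the line marks equal values. Coding genes (grey) and long noncoding RNAs (green) narrow toward the line as the level rises, while small RNA genes (red) lie off it more often, some at 0.01 because 1 library lists them at 0.

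Of 6462 genes with a mean of at least 10 FPKM, 59 were past 2-fold, and all 59 were short RNAs, paired with a length under 200 nt. That is 45.7% of the 129 genes of that length, while none of 6234 genes of 200 nt or more was past it. MIR553 and SNORD27 were the largest differences toward replicate 1, and SNORD42B, SNORD110 and SNORD57 toward replicate 2, each listed at 0 in the other library.

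**Figure D5:**
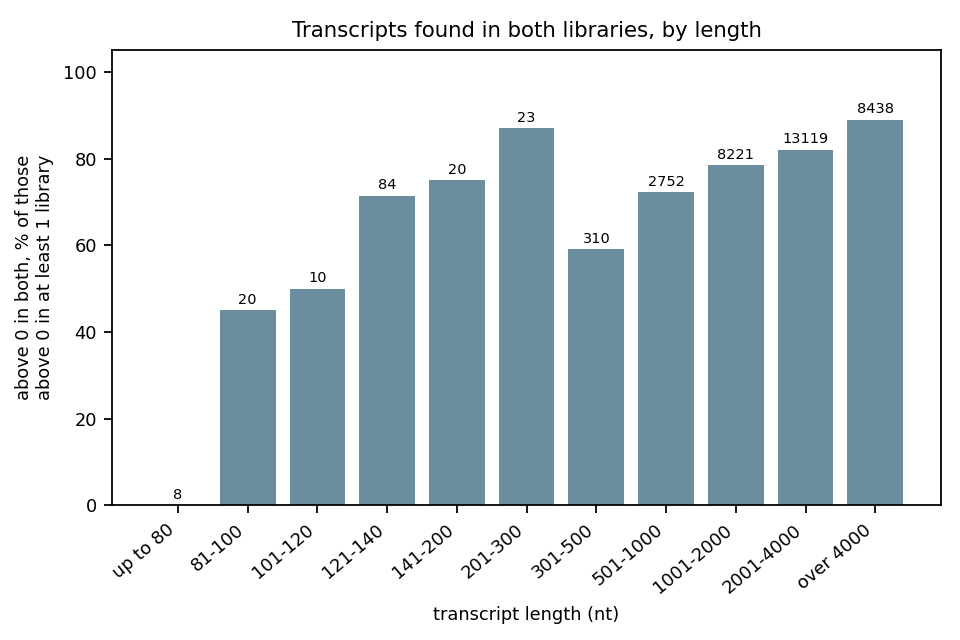
Percent of transcripts above 0 in both libraries among those above 0 in at least 1 (vertical axis), by transcript length (horizontal axis); the number over each bar is the transcripts above 0 in at least 1 library. The share is 0 of 8 up to 80 nt, 45% of 20 over 80 and up to 100 nt and 88.9% of 8438 over 4000 nt.

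Detection moved with length in the same way. Of 8 transcripts of up to 80 nt above 0 in any library none was above 0 in both, over 80 and up to 100 nt 9 of 20 were, and over 120 and up to 140 nt 60 of 84. Over 200 and up to 300 nt, the length of RMRP and SNORD17, 20 of 23 were. The share did not climb evenly, since it was 59.0% over 300 and up to 500 nt.

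Coding genes at the edge of the spread were small in their difference. Among coding genes with a mean of at least 10 FPKM, H2AC25 was furthest apart at 66.7 and 124 FPKM, a log2 ratio of -0.88 on the log2(FPKM + 1) scale. RPL9 was at 11.4 and 20.4 FPKM and H4C11 at 20.7 and 35.1 FPKM. In the other direction IFITM2 was at 13.03 and 7.95 FPKM and CREM at 12.9 and 8.07 FPKM. From 100 to 1000 FPKM the median difference of coding genes was 0.060 on that scale and 95% of the 522 genes were within 0.19. A coding level above 10 FPKM was thus repeated to within 2-fold for all 6173 genes.

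Single transcripts were less certain than genes. Of 11922 transcripts with a mean of at least 1 FPKM whose gene has several, 12.2% were past 2-fold, against 1.78% of 5783 transcripts that are their gene's only one. In 3661 genes with several transcripts and a summed mean of at least 10 FPKM, the leading transcript held a median of 81.7% of the gene's level and was the same in both libraries for 90.2%. PKM transcript NM_001206799, a minor form, was at 10.9 FPKM in replicate 1 and 0.0374 FPKM in replicate 2, while the gene's sum was 506 and 467 FPKM.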

How the data were processed

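RNA of HEK293T cells was sequenced in 8 libraries, of which the 2 WT RiboMinus libraries were used. The authors deposited FPKM values per RefSeq transcript in a table of 53216 rows. The submitters' processing notes list TopHat2 2.1.1, Bowtie2 2.2.8.0 and Cuffdiff, and the build hg19, with no parameters. The annotation version and any scaling between libraries are not given in the sources used here.

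FPKM was used as deposited. RefSeq's gene table of GRCh38.p14 paired 52028 rows (97.8%) with 25695 symbols, after the copy number at the end of 3309 accessions was dropped. FPKM was summed per symbol. Rows with no symbol stayed single. Classes came from the RefSeq gene type and the symbol. Lengths of 50288 transcripts came from GENCODE release 29, or the gene span for genes under 500 nt. Both are GRCh38, so lengths may differ from those the authors used, and coordinates are given only for printed sequences.

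Depth was read from 7443 transcripts of 1500 to 6000 nt that are alone in their gene: FPKM times length less 200 nt clustered at whole multiples of 1 step, with 71.9% and 71.7% of low values within 4% of one. FPKM was turned into fragment equivalents only to compare the libraries with sampling noise. With 1 group there was no test between groups. The ratio of the libraries was taken on log2(FPKM + 1) with a limit of 2-fold over genes with a mean of at least 1 FPKM. The limit was tried on simulated coding genes with a mean of at least 10 FPKM and sampling noise alone. That run does not cover lower levels or short noncoding RNAs. Python 3.11.15, numpy 2.4.6, pandas 2.3.3 and scipy 1.17.1 were used.

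Members and lists were chosen with earlier results of these data known. Genes were named by a rule: the 20 highest coding and noncoding genes, the 3 highest of each class and list, list members at 0, and the 5 largest differences in each direction. One long noncoding RNA that it takes is not reported here, and others are summarised by counts. UBB, NPM1 and NCL, the transcripts named for PKM and CDKN2A, and the ribosomal protein, histone and HOX lists, were chosen after values were seen. Alternatives were FPKM times length, leaving out short rows, other limits and pseudocounts, centring, no summing per gene and leaving out each replicate.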

Additional observations from a re-analysis of the deposited data

How the results depend on the processing

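Depth limits the short and the low: under 100 nt a level such as 2459 FPKM can come from very few fragments. No paired analysis was possible because the libraries form 1 group and no result comes from a test. In the order coding, long noncoding, H/ACA box, C/D box and other small structured RNA, the class shares were 93.2%, 1.61%, 0.555%, 0.256% and 3.50% by FPKM times length. Without rows under 200 nt they were 72.2%, 0.928%, 1.85%, 0.397% and 23.2%. Both snoRNA classes thus fell below long noncoding RNAs by FPKM times length, and the C/D class also without short rows. Without RMRP, the coding, long noncoding, H/ACA and other small structured shares were 72.6%, 1.02%, 7.11% and 10.1%. With transcripts of at least 1 FPKM only, the long noncoding share was 0.818% and the H/ACA share 6.29%. The number of genes in both libraries was 6241 at 10 FPKM or more, against 11992 at 1 FPKM, and the limit itself sets this. The 100 highest coding genes held 14.8% of coding FPKM times length. The share of genes past 2-fold was 8.81% per transcript and 1.41% with a pseudocount of 0.1. Spearman's rho was 0.902 per transcript, 0.9696 with no filter and 0.958 for a mean of at least 10 FPKM. Leaving out either replicate leaves the other library's own value, which is no test of stability, and gave a coding share of 63.1% to 64.4%, a long noncoding share of 0.887% to 0.909%, an H/ACA share of 6.24% to 6.25%, a C/D share of 3.19% to 5.86%, an other small structured share of 20.6% to 21.3%, 12272 to 12377 genes, and a share of the 100 highest of 23.19% to 23.23%.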

Other observations

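The HOX genes, which record position along the body axis, were broadly present, a family chosen after values were seen. Of 39 genes, 35 were at 1 FPKM or more in both libraries and 13 at 10 or more, with a median of 6.92 FPKM. Of all 18858 coding genes, 11003 were at 1 FPKM or more and 6002 at 10 or more. The HOX share at 10 FPKM was thus close to that of coding genes as a whole. In the HOXA cluster all 11 genes reached 1 FPKM, in HOXB 9 of 10, in HOXC 8 of 9 and in HOXD 7 of 9. The highest were HOXB9 at 67.3 and 65.2 FPKM, HOXA9 at 64.4 and 59.4 FPKM, HOXA5 at 54.7 and 53.6 FPKM and HOXA10 at 45.2 and 44.4 FPKM. HOXD13, a gene of the most distal structures, was at 37.1 and 35.1 FPKM beside HOXD10 at 37.6 and 35.8 FPKM. HOXB1 and HOXD12 were listed at 0 in both libraries.

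Of 28 signalling receptors that the cell line brings to experiments with foreign receptors, 15 were at 1 FPKM or more in both libraries, close to the 58.3% of all coding genes, and 13 were not. None reached 10 FPKM in both, against 6002 of all 18858 coding genes. ERBB2 and FGFR1, receptor tyrosine kinases, were at 8.52 and 10.95 FPKM and at 10.4 and 9.15 FPKM. The thrombin receptor F2R and its relative F2RL1 were at 6.11 and 5.21 FPKM and at 6.51 and 6.56 FPKM, the adenosine receptor ADORA2B at 5.54 and 5.75 FPKM and the purine receptor P2RY1 at 4.79 and 4.95 FPKM. The dopamine receptor DRD1 was listed at 0 in both libraries. Of 8 imprinted and microRNA host noncoding genes, 6 had a row and 3 were at 1 FPKM or more: MIR17HG at 15.9 and 16.3 FPKM, KCNQ1OT1 at 3.68 and 4.37 FPKM and MIR22HG at 1.84 and 1.17 FPKM. MEG3 was listed at 0 in both libraries. Of 17 names on the list of spliceosomal snRNAs, which also holds RNU7-1, not a spliceosomal RNA, 7 had a row and 4 were at 1 FPKM or more.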
